A study of Mus musculus with 6 samples.

Results

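Immunoglobulin V segments are the gene pieces that B cells join to make the variable end of an antibody chain, and transcripts of them were counted in every library of this study of sorted regulatory T cells (Tregs, the FOXP3-expressing T cells that restrain immunity). The members are all genes whose GENCODE M21 symbol starts with Ighv (heavy chain), Igkv (kappa light chain) or Iglv (lambda light chain) and that had at least 10 counts summed over the 6 libraries. Of 53379 gene rows in the deposited tables, 348 were V segments (185 Ighv, 160 Igkv and 3 Iglv), and 288 of these were members (162 Ighv, 123 Igkv and 3 Iglv). Just inside the minimum were Ighv1-48, Ighv5-5 and Igkv9-119 with 10 counts in all. Just outside were Ighv1-35 and Igkv1-115 with 9 and Ighv1-1 with 8. Of the members, 213 are annotated as functional V genes, 73 as V pseudogenes and 2 under another immunoglobulin type. The kappa segment Igkv15-103 was singled out from earlier results of these data as higher in the bKO libraries, so its difference between genotypes is given as a description with no test.

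The study compared 3 WT with 3 bKO libraries, all from C57BL/6 mice aged 3 months. The WT genotype is Foxp3YFP-Cre with unaltered Junb (Junb+/+), and the bKO genotype is Foxp3YFP-Cre with floxed Junb (Junb Flox/Flox), so both carry the Cre allele. JunB is part of the dimeric AP-1 transcription factors. Cre driven by Foxp3 acts in Tregs, and B cells do not normally express Foxp3. Cells were sorted as Tregs by flow cytometry, and the sources used here give neither the gate nor its purity. Whether replicate libraries were made from different mice is not in the labels. P-values below therefore measure only how far these libraries differ, which may be a technical spread.

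A B cell builds its heavy chain gene by joining a V, a D and a J segment, and its light chain gene by joining a V and a J segment at the kappa or the lambda locus. Each B cell and its descendants keep the segments they joined, so that a segment's share of the counts reflects both how many cells use it and how much immunoglobulin RNA those cells hold. Plasma cells, the antibody-secreting end stage of the B lineage, carry far more immunoglobulin RNA than resting B cells. T cells rearrange their own receptor genes and are not known for making functional immunoglobulin transcripts.

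The labelled cell type was checked against its markers. Junb, the targeted gene, was at 87.1, 77.5 and 89.5 CPM (counts scaled to a common library total) in WT replicates 1, 2 and 3 and at 57.1, 57.3 and 49.6 CPM in the bKO replicates. The bKO mean was thus 64.5% of the WT mean, without overlap, with an adjusted p = 0.9999 by edgeR over all genes. The libraries held 33784183 to 41231173 counts. Summed over 10 T cell markers the level was 6993 to 8950 CPM, and the Treg transcription factor Foxp3 was at 28.1 to 39.5 CPM. All 15 B cell markers of the list were also detected in all 6 libraries, with a summed level of 179 to 1349 CPM. The libraries labelled as Tregs thus held B lineage transcripts beside those of T cells, and which cells the V segment counts came from was not tested.

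V segments took 0.321%, 0.773% and 0.106% of all counts in the WT replicates and 0.436%, 0.843% and 0.232% in the bKO replicates. The summed heavy chain segments were at 1140.5, 2967 and 305 CPM in WT and at 1273, 2824 and 611 CPM in bKO. The summed kappa segments were at 1648, 4278 and 689 CPM in WT and at 2727, 4925 and 1475 CPM in bKO. WT replicate 3 had the lowest and WT replicate 2 or bKO replicate 2 the highest level at both loci, and the genotypes overlapped at both. The summed lambda segments were at 397, 385 and 90.8 CPM in WT and at 449, 604 and 224 CPM in bKO, again with overlap. The ratio of the bKO to the WT mean was 1.07 for Ighv (1569 ± 1136 against 1471 ± 1361 CPM, SD, n = 3), 1.38 for Igkv (3042 ± 1746 against 2205 ± 1858) and 1.46 for Iglv (425 ± 191 against 291 ± 173). These differences are smaller than the SD within either genotype. In bulk samples, fewer cells of a type and less RNA per cell cannot be told apart.

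**Figure D1:**
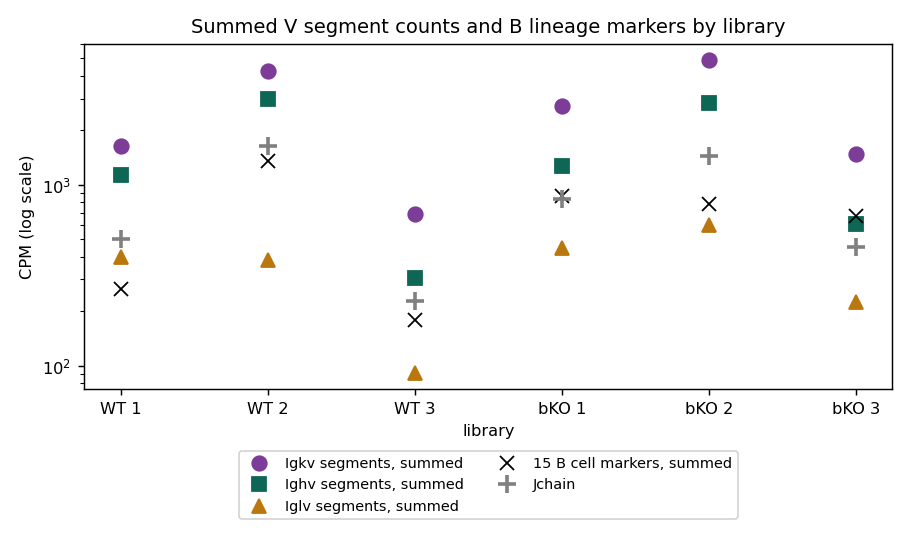
Summed CPM (log scale) of the Ighv, Igkv and Iglv segments, of 15 B cell markers and of the plasma cell gene Jchain in each of the 6 libraries, with 1 symbol per library and quantity. WT replicate 3 is lowest in every series drawn, and WT replicate 2 and bKO replicate 2 are highest for the Ighv and Igkv sums.

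The names of the deposited tables carry a number that is shared by WT replicates 1 and 2 and bKO replicate 2, and another that is shared by WT replicate 3 and bKO replicates 1 and 3. The sources used here do not say what these numbers stand for. Within the first set, the log2 ratio of bKO to WT was 0.46 for Ighv, 0.73 for Igkv and 0.63 for Iglv. Within the second set it was 1.62, 1.61 and 1.89, against 0.093, 0.46 and 0.55 over all libraries. Each set has a single library on 1 side, so these values have no replicate check there. The log2 ratio for Ighv changed sign to −0.64 without bKO replicate 2 and rose to 1.12 without WT replicate 2.

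Igkv15-103 (ENSMUSG00000076523.2) is a functional kappa segment on the plus strand of GRCm38 at chr6:68437440-68437925, with 375 exon bases. It is shown at length because its genotype difference named it. The last 300 coding bases in GENCODE M21 are printed 5′ to 3′, with capitals from the conserved cysteine codon at which the third complementarity-determining region (CDR3, the most variable antigen-binding loop) begins.
Igkv15-103: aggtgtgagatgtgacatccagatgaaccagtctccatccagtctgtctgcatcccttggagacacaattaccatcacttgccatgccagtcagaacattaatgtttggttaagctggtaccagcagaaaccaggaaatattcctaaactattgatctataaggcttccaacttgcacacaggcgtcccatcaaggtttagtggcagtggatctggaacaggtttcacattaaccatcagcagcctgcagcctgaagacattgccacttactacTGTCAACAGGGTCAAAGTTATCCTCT
None of its stretches of 50 bases, the length of a read, occurs in another annotated transcript on either strand. Reads that match it in full can thus be placed on it alone among annotated transcripts.

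Igkv15-103 had 172, 300 and 261 counts in the WT replicates and 1388, 922 and 771 in the bKO replicates. In CPM these are 4.97, 8.76 and 6.47 against 36.8, 26.3 and 20.8. All 3 bKO libraries were above all 3 WT libraries, and the means were 28.0 ± 8.12 and 6.73 ± 1.91 CPM (SD, n = 3), a log2 difference of 2.05 with an SE of 0.32. Its share of all Igkv counts was 0.302% (95% Clopper-Pearson interval 0.258 to 0.350), 0.205% (0.182 to 0.229) and 0.938% (0.828 to 1.06) in WT. In bKO the share was 1.35% (1.28 to 1.42), 0.535% (0.501 to 0.570) and 1.41% (1.31 to 1.51). The genotypes overlapped in this share, since WT replicate 3, with the fewest kappa counts of all libraries, had a higher share than bKO replicate 2. The mean share was 0.482% ± 0.398 in WT and 1.10% ± 0.488 in bKO (SD, n = 3), a difference of 0.62 percentage points. Within the table-name sets the difference was 0.28 and 0.44 percentage points. By mean share the segment ranked 60 among kappa members in WT and 29 in bKO. The intervals cover counting error only, as reads without molecular identifiers are not independent molecules.

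**Figure D2:**
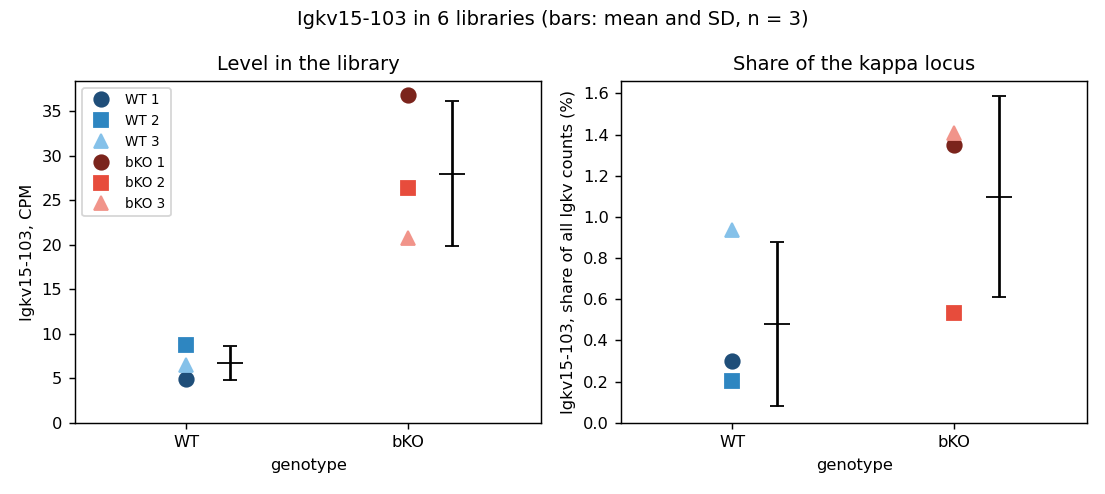
Igkv15-103 in the 6 libraries as CPM (left) and as a share of all Igkv counts in percent (right), with 1 symbol per library and the mean with SD (n = 3) beside each genotype. The CPM values do not overlap (4.97 to 8.76 in WT and 20.8 to 36.8 in bKO), whereas the shares do.

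Igkv5-39 (ENSMUSG00000076569.3), on the minus strand at chr6:69900424-69900977, was the kappa segment with the highest mean share over the 6 libraries, and had the highest mean level per length of all V segments, at 731 CPM per kilobase of exon. Iglv1 followed at 527, Iglv2 at 333 and Igkv1-110 at 326 CPM per kilobase. Both ranks rested on WT replicate 2. Without it, the mean share of Igkv5-39 was 4.24%, below Igkv1-110 at 5.87% and Igkv1-117 at 5.28%, and its level was 263 CPM per kilobase against 517 for Iglv1. Igkv5-39 took 9.16%, 24.9% and 4.40% of Igkv counts in WT and 3.68%, 3.38% and 0.550% in bKO. Its highest share, in WT replicate 2, was 45.3 times its lowest, in bKO replicate 3, and all WT shares were above all bKO shares. The mean share was 12.8% ± 10.7 in WT and 2.54% ± 1.73 in bKO (SD, n = 3). The difference of −10.3 percentage points was −4.24 without WT replicate 2, and −13.7 and −2.28 within the table-name sets. In CPM, however, the genotypes overlapped, with 151, 1066 and 30.3 in WT and 100.5, 167 and 8.11 in bKO. Its log2 difference was −2.18 with an SE of 1.39, and its adjusted p by edgeR was 0.9999. It has no stretch of 50 bases in common with another annotated transcript.

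Igkv1-110 and Igkv1-117, which belong to the same family, had the next highest mean shares. Igkv5-39 led in WT replicates 1 and 2, Igkv1-117 in WT replicate 3 and Igkv1-110 in the 3 bKO libraries. Their ends are printed with that of Igkv5-39 because these 3 segments had the highest mean shares of the locus, and because Igkv1-110 and Igkv1-117 resemble each other. The last 60 coding bases are given 5′ to 3′, with capitals from the conserved cysteine codon.
Igkv5-39: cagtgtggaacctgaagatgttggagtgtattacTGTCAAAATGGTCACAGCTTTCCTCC
Igkv1-110: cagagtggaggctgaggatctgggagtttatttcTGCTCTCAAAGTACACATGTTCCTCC
Igkv1-117: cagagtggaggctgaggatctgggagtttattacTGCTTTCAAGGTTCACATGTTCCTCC
Igkv1-110 lies at chr6:68270485-68271267 and Igkv1-117 at chr6:68121046-68121827, both on the plus strand. Of the 50-base stretches of Igkv1-110, 50.9% also occur in another annotated transcript, most often Igkv1-117, so that the split of counts between the 2 is uncertain. Igkv1-110 took 7.29%, 3.39% and 5.89% of Igkv counts in WT and 5.30%, 5.05% and 5.83% in bKO. Igkv1-117 took 5.15%, 3.61% and 7.22% in WT and 4.76%, 4.70% and 4.57% in bKO. Both were lowest in WT replicate 2, where Igkv5-39 was highest, and both overlapped between genotypes. A large share of Igkv5-39 lowers the shares of all other kappa segments in the same library. With Igkv5-39 left out of the kappa total, Igkv1-110 was still lowest in WT replicate 2, but Igkv1-117 was not.

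Among the other kappa segments with the 10 highest mean shares, Igkv8-27 took 4.02%, 3.02% and 6.28% in WT and 3.82%, 2.16% and 2.55% in bKO. Igkv6-15 took 0.935%, 1.69% and 1.55% in WT and 2.14%, 4.09% and 2.92% in bKO, with every bKO share above every WT share. This separation depended on Igkv5-39, which took 24.9% of the kappa counts in WT replicate 2. With Igkv5-39 left out of the kappa total, Igkv6-15 in WT replicate 2 exceeded the lowest bKO library, so the genotypes overlapped. As a share of all Igkv counts, Igkv4-59 was also without overlap, at 1.601% to 1.97% in WT and 2.10% to 3.05% in bKO. However, 74.3% of its 50-base stretches occur in other transcripts. The remaining segments of these 10 overlapped between genotypes. Igkv1-135 took 2.26% to 4.08% over the 6 libraries, Igkv8-30 2.04% to 3.65% and Igkv19-93 1.25% to 3.76%. Igkv2-137 took 0.784% to 3.64%, and its exon overlaps the annotated gene Gm42889 on the same strand. Of the 123 kappa members, 31 had a mean share over 1% and 30 a mean share under 0.1%.

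**Figure D3:**
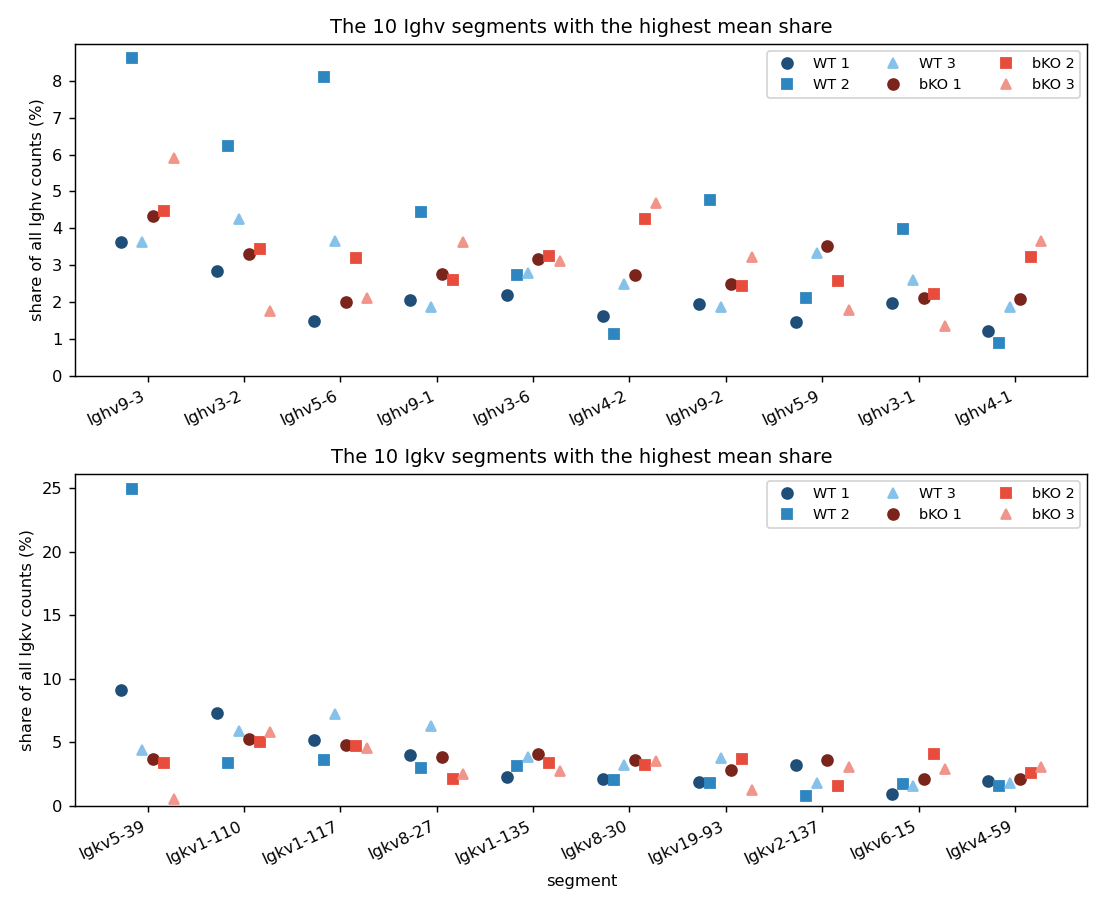
Share in percent of all Ighv counts (upper panel) and of all Igkv counts (lower panel) for the 10 segments of each locus with the highest mean share, with 1 symbol per library. Igkv5-39 stands at 24.9% in WT replicate 2 and at 0.550% in bKO replicate 3.

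At the heavy chain locus, no member reached 10% of the Ighv counts in any library. The segment with the highest mean share was Ighv9-3 (chr12:114140692-114141122), which took 3.63%, 8.61% and 3.64% in WT and 4.35%, 4.47% and 5.92% in bKO. Its relatives Ighv9-1 (chr12:114093928-114094358) and Ighv9-2 (chr12:114109001-114109430) were also among the 10 most used, and all 3 lie on the minus strand. Their ends are printed in the same way as above, because they show how alike the segments of 1 family can be in a read of 50 bases.
Ighv9-3: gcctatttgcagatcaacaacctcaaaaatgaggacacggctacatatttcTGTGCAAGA
Ighv9-2: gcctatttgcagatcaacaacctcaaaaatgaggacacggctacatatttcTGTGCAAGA
Ighv9-1: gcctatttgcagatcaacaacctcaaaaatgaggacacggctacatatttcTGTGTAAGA
The printed stretches of Ighv9-3 and Ighv9-2 are identical. Ighv9-1 took 2.07%, 4.44% and 1.87% in WT and 2.78%, 2.59% and 3.64% in bKO. Ighv9-2 took 1.95%, 4.76% and 1.88% in WT and 2.49%, 2.44% and 3.23% in bKO. All 3 were highest in WT replicate 2, and the genotypes overlapped.

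Ighv4-1, a functional segment, and Ighv4-2, annotated as a pseudogene, were higher in share in all bKO libraries than in any WT library. Ighv4-2 took 1.61%, 1.14% and 2.498% in WT and 2.74%, 4.25% and 4.68% in bKO. Ighv4-1 took 1.22%, 0.890% and 1.86% in WT and 2.09%, 3.23% and 3.65% in bKO. The pair had the same order of libraries, and 34.8% of the 50-base stretches of Ighv4-2 occur elsewhere, Ighv4-1 being its closest relative. A separate count of the pair is thus uncertain. In CPM the pair overlapped between genotypes, with log2 differences of 1.61 for both (SE 0.71 for Ighv4-2 and 0.72 for Ighv4-1). Ighv3-6, with 2.91% of its stretches found elsewhere, took 2.20%, 2.74% and 2.79% in WT and 3.16%, 3.25% and 3.11% in bKO, also without overlap.

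The remaining heavy chain segments of the 10 most used overlapped between genotypes. Ighv5-6 ranged most widely, with 1.49%, 8.10% and 3.67% in WT and 2.01%, 3.21% and 2.12% in bKO. Ighv3-2, annotated as a pseudogene, took 1.75% to 6.23% over the 6 libraries, Ighv5-9 1.47% to 3.51% and Ighv3-1 1.35% to 3.99%. The highest shares of Ighv9-3, Ighv3-2, Ighv5-6 and Ighv3-1 were all in WT replicate 2. Of the 162 heavy chain members, 30 had a mean share over 1% and 41 a mean share under 0.1%. Segments annotated as pseudogenes or under another type took 13.4% to 16.8% of Ighv counts and 1.59% to 3.36% of Igkv counts. For the 20 heavy and kappa segments of these lists and for Igkv15-103, the bounds of the 95% Clopper-Pearson interval of a library's share lay within 0.371 percentage points of it. The spread over all 6 libraries was wider than that. Within a genotype it was not always wider, as for Ighv3-6 in bKO (3.11% to 3.25%).

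The lambda locus of the mouse has few V segments, and all 3 were members. Iglv1 and Iglv2 share 22.2% and 21.1% of their 50-base stretches with other transcripts, each being the other's closest relative, while Iglv3 shares none. The ends of all 3 are printed to show where they differ. Those of Iglv1 and Iglv2 differ at several bases, so no whole shared stretch lies within them.
Iglv1: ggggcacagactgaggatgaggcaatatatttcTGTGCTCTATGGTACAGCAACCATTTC
Iglv2: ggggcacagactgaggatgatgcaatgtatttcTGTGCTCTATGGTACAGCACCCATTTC
Iglv3: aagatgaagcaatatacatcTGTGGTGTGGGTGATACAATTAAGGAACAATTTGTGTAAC
Iglv1 (chr16:19085017-19085500) took 64.7%, 58.5% and 54.3% of Iglv counts in WT and 55.1%, 55.7% and 54.3% in bKO. Iglv2 (chr16:19260401-19260859) took 31.1%, 30.8% and 29.5% in WT and 38.1%, 35.6% and 34.0% in bKO. Its share was higher in every bKO library than in any WT library, with means of 30.5% ± 0.804 and 35.9% ± 2.09 (SD, n = 3). Iglv3 (chr16:19241207-19241690) took 4.199%, 10.7% and 16.2% in WT and 6.73%, 8.72% and 11.7% in bKO, with overlap.

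Lambda segments made up 19.4%, 8.25% and 11.6% of light chain V counts in WT and 14.1%, 10.9% and 13.2% in bKO. Both the highest and the lowest share were in WT libraries, and the means were 13.1% ± 5.73 and 12.7% ± 1.65 (SD, n = 3). The difference of −0.37 percentage points became 2.79 without WT replicate 1 and −2.80 without WT replicate 2. Within the table-name sets it was −2.92 and 2.003 percentage points, so the sets differed in sign.

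Grouped by V family, the Ighv1 family, the largest with 88 members, took 44.2%, 24.6% and 35.0% of Ighv counts in WT and 35.7%, 35.6% and 35.6% in bKO. WT replicates 1 and 2 thus stood on opposite sides of the bKO libraries. The Ighv9 family took 20.0% in WT replicate 2 and 8.30% to 14.5% in the other libraries. The Ighv4 family, which consists here of Ighv4-1 and Ighv4-2, took 2.03% to 4.36% in WT and 4.83% to 8.33% in bKO. The Ighv2 family, with 9 members, was lower in bKO without overlap, at 3.82% to 6.91% in WT and 3.04% to 3.70% in bKO.

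Among kappa families, Igkv4, the largest with 33 members, took 18.9%, 18.3% and 16.5% in WT and 19.1%, 20.8% and 31.2% in bKO. The groups did not overlap, but bKO replicate 1 lay close to WT replicate 1. With Igkv5-39 left out of the kappa total, Igkv4 in WT replicate 2 exceeded bKO replicates 1 and 2, so the groups overlapped. Igkv6, with 9 members, took 5.45%, 5.22% and 9.07% in WT and 9.42%, 10.97% and 10.1% in bKO. Igkv9, with 6 members, took 1.51% to 1.80% in WT and 2.22% to 3.22% in bKO. Igkv5, which holds Igkv5-39, was lower in bKO, at 6.27% to 27.3% in WT and 3.25% to 6.11% in bKO. The rest of this family, without Igkv5-39, overlapped between genotypes. The families differ in which segments they hold and share reads among themselves, so their shares are given with no test.

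**Figure D4:**
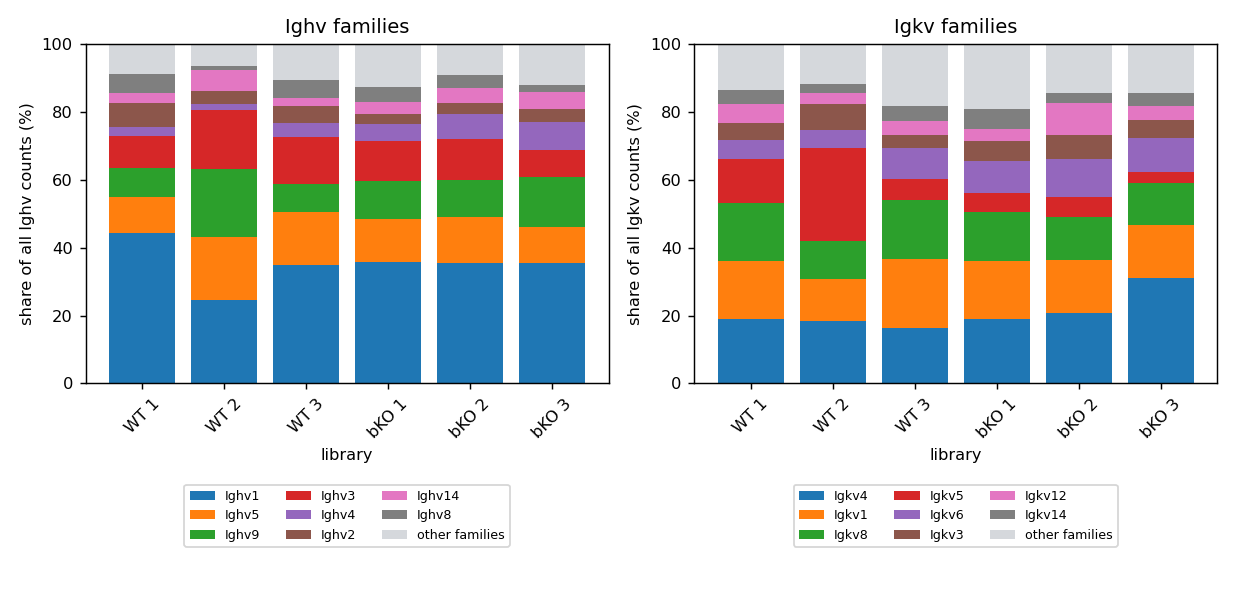
Stacked shares in percent of all Ighv counts (left) and all Igkv counts (right) by V family in each library, with the 8 families of highest mean share drawn separately and the others summed. The Ighv1 share spans 24.6% to 44.2% over the WT libraries and 35.6% to 35.7% over the bKO libraries, and Igkv5 is widest in WT replicate 2.

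Of the 288 members, 255 passed edgeR's filter on low counts (141 Ighv, 111 Igkv and 3 Iglv). By edgeR, 0 of these were called at an adjusted p under 0.05, as were 0% of the 20475 genes tested, and the smallest adjusted p of a V segment was 0.9999. Limma-voom also called 0. DESeq2 called 1 V segment, Igkv15-103, where it called 0.272% of the genes to which it gave an adjusted p, and since that contrast named the segment nothing is read from the call. At an unadjusted p under 0.05 by edgeR there were 5 V segments, all kappa and all higher in bKO, where 2.88% of all genes passed. Igkv15-103 is counted among them, and nothing is read from it here either. The other 4 were Igkv4-57-1, Igkv6-32, Igkv12-89 and the pseudogene Igkv4-83. This count depended strongly on the fit, with 94 of 255 segments (933 of 20475 genes) with a term for the table-name number and 54 of 257 segments (1125 of 21420 genes) without WT replicate 2. No segment passed after adjustment in either fit. The members varied more between libraries of a genotype than other genes, with a median biological coefficient of variation of 70.8% against 36.9% over all genes tested.

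In CPM, 4 of the 255 segments had no overlap between genotypes, all of them kappa segments that were higher in bKO, where 7.76% of all genes tested had no overlap (3.68% higher and 4.07% lower). They were Igkv15-103, which was chosen for this difference, Igkv4-57-1, Igkv12-89 and the pseudogene Igkv2-116. Igkv4-57-1 was at 7.98, 15.4 and 6.86 CPM in WT and at 16.1, 42.2 and 33.7 CPM in bKO, and 29.0% of its 50-base stretches occur elsewhere. Igkv12-89, which shares no such stretch, was at 0.145, 2.45 and 0.0248 CPM in WT and at 4.03, 16.6 and 12.5 CPM in bKO. The WT values of Igkv12-89 spread widely among themselves, and those of 0.145 and 0.0248 CPM stand for very few counts. Its log2 difference of 3.67 had an SE of 1.39 and was taken against a low WT mean of 0.874 CPM. Igkv6-32, also without a shared stretch, was at 5.90, 14.6 and 3.97 CPM in WT and at 26.6, 39.2 and 11.1 CPM in bKO, with overlap.

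The log2 difference was above 0 for 196 of the 255 segments (96 of 141 Ighv, 97 of 111 Igkv and 3 of 3 Iglv), where 50.9% of all genes tested were above 0. The median log2 difference was 0.22 for Ighv, 0.85 for Igkv and 0.59 for Iglv, against 0.0055 over all genes. These counts moved with single libraries. Without WT replicate 2 the count was 248 of 257 and the median 1.28. Without WT replicate 3 it was 134 of 264 with a median of 0.0096, and without bKO replicate 2 it was 109 of 257 with a median of −0.14. With a term for the table-name number in the fit it was 250 of 255, with a median of 1.29.

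As a share of the own locus, which removes the library's total level of the locus, 28 of the 255 tested segments did not overlap between genotypes. Of them 25 were higher in bKO (9.8% of the V segments tested) and 3 lower (1.18%). These percentages are the V segments' own, since a share of a locus was computed for no other gene, and nothing particular to the segments is read from the count. The 3 lower in bKO were Ighv2-4, Ighv2-5 and Igkv5-39. Shares of a locus sum to 100%, so the large WT share of Igkv5-39 takes from all other kappa segments. With Igkv5-39 left out of the kappa total, 21 segments were higher and 5 lower without overlap.

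**Figure D5:**
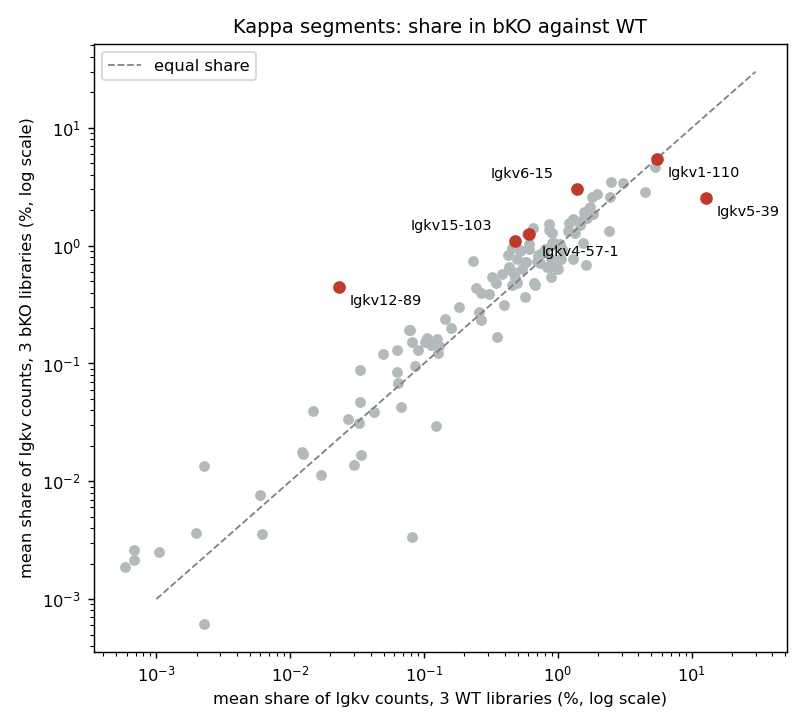
Mean share of all Igkv counts in 3 bKO libraries against the mean share in 3 WT libraries (both in percent, log scales), with 1 point for each of 121 kappa members and a dashed line at equal shares. The 2 members that were at 0 in all libraries of a genotype are not drawn. Igkv5-39 lies below the line, and Igkv15-103, Igkv12-89 and Igkv6-15 lie above it.

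Evenness of use was summarised by the effective number of segments, the number of equally used segments that would have the same Shannon entropy, after each library was thinned to the smallest count of the locus. For kappa it was 55.4, 39.7 and 57.3 in WT and 65.2, 64.99 and 69.4 in bKO. Every bKO library was above every WT library, with means of 50.8 ± 9.68 and 66.5 ± 2.498 (SD, n = 3). With Igkv5-39 left out and no thinning, the numbers were 59.4, 64.1 and 57.2 in WT and 64.8, 65.1 and 68.9 in bKO, so WT replicate 2 moved close to the bKO libraries. For Ighv it was 94.0, 62.0 and 80.3 in WT and 86.6, 84.0 and 84.9 in bKO, and the genotypes overlapped. The 10 most counted kappa segments of a library together took 42.7%, 50.3% and 41.9% in WT and 36.7%, 37.3% and 32.8% in bKO.

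Segment use was then compared between pairs of libraries as the share of counts that would have to change segment to make the pair equal. For Ighv this share was 22.5% to 35.2% for pairs of WT libraries, 12.6% to 17.5% for pairs of bKO libraries and 16.2% to 29.0% for mixed pairs. For Igkv it was 26.5% to 32.7%, 16.7% to 20.6% and 16.7% to 36.6%. The bKO libraries were thus closer to each other than the WT libraries were, and WT replicate 2 was the library farthest from the others on average (30.2% for Ighv and 32.7% for Igkv). With 3 pairs of each kind that share libraries, this is a description with no test.

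By position, the Ighv members were ordered from the J segments outward on chromosome 12 and split into 4 groups of 40 or 41. The group next to the J segments took 36.0%, 50.7% and 41.4% of counts in WT and 39.3%, 40.6% and 41.0% in bKO. The farthest group took 24.8%, 9.82% and 21.1% in WT and 20.6%, 20.5% and 17.8% in bKO. WT replicate 2 had the highest share near the J segments and the lowest far from them, and the genotypes overlapped in both groups. Among Igkv members on chromosome 6, the third group from the J segments took 15.4%, 16.6% and 17.5% in WT and 18.3%, 19.0% and 22.8% in bKO, without overlap, and the other 3 groups overlapped. This separation depended on Igkv5-39, which lies outside the third group and took 24.9% of the kappa counts in WT replicate 2. With Igkv5-39 left out of the kappa total, the third group in WT replicate 2 exceeded the lowest bKO library, so the genotypes overlapped. Kappa segments on the plus strand, which have the orientation of the kappa J segments and need no inversion to be joined to them, took 35.2%, 31.2% and 40.2% in WT and 42.1%, 34.0% and 37.1% in bKO.

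How far reads can be assigned to a single segment limits these shares. Of the 288 members, 56 had no 50-base stretch in common with another annotated transcript, 40 shared over 50% of their stretches, and the median was 20.3%. Those 40 took 5.55% to 12.8% of Ighv counts and 15.96% to 24.5% of Igkv counts. Ighv1-71 had 871 counts in all although 97.4% of its stretches occur in other transcripts, mostly Ighv1-62-2, which had 816. Ighv5-8 and Ighv1-13 have 2 rows each, on opposite strands, and both rows of Ighv5-8 had the same count in every library.

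The V segment counts were set beside other genes of the B lineage. Among the 12 immunoglobulin constant genes, 8 had a log2 difference above 0 and 4 below, and edgeR called 0 of them. Ighm, the constant gene of IgM, took 50.0%, 65.03% and 85.2% of heavy chain constant counts in WT and 77.2%, 60.4% and 78.1% in bKO. The switched constant genes took 49.6%, 34.1% and 14.4% in WT and 21.8%, 39.04% and 20.1% in bKO, with overlap. Ighg3, the constant gene of IgG3, took 0.884%, 2.29% and 2.65% in WT and 4.11%, 6.10% and 5.47% in bKO, with every bKO share above every WT share. It is named because it alone of the heavy chain constant genes had no overlap in share. In CPM Ighg3 overlapped, at 38.7, 263 and 56.2 in WT and 239, 583 and 164 in bKO.

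Of 15 B cell markers, such as Ms4a1 (CD20) and Cd79a (a signalling chain of the B cell receptor), 13 had a log2 difference above 0 and 2 below, with a median of 0.42, and edgeR called 0. Their summed level was 265, 1349 and 179 CPM in WT and 872, 783 and 672 CPM in bKO. Of 8 plasma cell genes 5 were above 0 and 3 below, again with 0 called, and their summed level was 630, 2001 and 341 CPM in WT and 1078, 1720 and 611 CPM in bKO. V counts per count of Cd79a spread widely, at 70.4, 29.4 and 42.0 in WT and 23.7, 59.6 and 17.6 in bKO. Per count of Jchain, the chain that joins secreted IgM and IgA and is abundant in plasma cells, they were nearly level, at 6.34, 4.67 and 4.79 in WT and 5.32, 5.78 and 5.06 in bKO. Of 8 genes of B cell precursors and recombination 5 were tested, with 3 log2 differences above 0 and 2 below and 0 called. Rag1, which cuts DNA for the joining of segments in developing lymphocytes, had 0 counts in all libraries, each of at least 33784183 counts, and its partner Rag2 had 9 in WT replicate 2, 2 in bKO replicate 2 and 0 elsewhere. Of the other genes of that list, Dntt, which adds bases at the joints, had 17 to 270 counts, and Vpreb1, part of the surrogate light chain, had 2 to 76. Il7r and Cd93 were also detected in all libraries. Igll1, however, had 21 counts in bKO replicate 1 and 0 elsewhere, and Vpreb2 had 8, 31 and 26 in WT and 0, 0 and 11 in bKO. Of 8 germinal centre B cell genes 6 were tested, with 2 above 0 and 4 below and 0 called, and their summed level was 40.7 to 78.2 CPM.

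Markers of other cells were set beside the V segments as well. The 8 myeloid markers summed to 285, 851 and 161 CPM in WT and to 623, 963 and 428 CPM in bKO, highest in bKO replicate 2 and lowest in WT replicate 3 as the Igkv sum was, and all 8 had a log2 difference above 0 with 0 called. The 6 erythroid markers summed to 77.0 to 7672 CPM and did not follow that order. The 6 plasmacytoid dendritic cell markers summed to 91.6, 240.3 and 116 CPM in WT and to 143, 223 and 160.5 CPM in bKO, with 4 above 0 and 2 below. All 10 T cell markers and all 5 Treg markers had a log2 difference below 0, again with 0 called. The 5 Treg markers summed to 1405 to 1624 CPM in WT and to 644, 1126 and 1477 CPM in bKO. The part of these other cells in the V segment values was not tested.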

How the data were processed

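RNA was sequenced from 6 libraries of sorted Tregs (3 WT and 3 bKO), as single reads of 50 bases from low-input SMARTer libraries, per the labels' protocols. The authors deposited raw read counts per Ensembl gene, made with STAR 2.3 and featureCounts on mm10, per the submitters' processing notes. The sources used here give no annotation release, strand setting or treatment of reads that match several places.

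Of 53379 gene rows, 53274 were matched to GENCODE M21 (GRCm38, the same assembly as mm10) and 105 were not. Library totals were 33784183 to 41231173 counts, and a V locus had 3665 to 172433. For the segments of highest mean share, counting error was smaller than the spread over all 6 libraries. The members and gene lists were chosen with earlier results of these data known. Segments were named by a rule: the 10 of highest mean share at the heavy and the kappa locus, all lambda segments, Igkv15-103, any with over 10% of a locus or called, and those next to the minimum of 10 counts. Others that are named (those without overlap or at an unadjusted p under 0.05, those with shared reads) were chosen after their values were seen.

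In R 4.3.3, edgeR 4.0.16 kept 20475 genes by filterByExpr and scaled libraries by TMM. Its robust quasi-likelihood F test had genotype as the sole term, and p-values were adjusted by Benjamini-Hochberg over these genes, with 0.05 as threshold. The script was tested on simulated counts. CPM use TMM library sizes. A share is a segment's counts over all counts of its locus. Effective numbers were computed after random thinning. Sequences and shared stretches of 50 bases come from GENCODE M21 transcripts. Alternatives were DESeq2 1.42.0, limma-voom (limma 3.58.1), RLE factors, other filters and denominators, a replicate block, a term for the table-name number, and leaving out each library.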

Additional observations from a re-analysis of the deposited data

How the results depend on the processing

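DESeq2 called 63 genes in all and 1 V segment, against 0 and 0 by edgeR with TMM or RLE factors, without a filter, with a term for the table-name number, and by limma-voom. Segments without overlap numbered 28 by share of the locus and 4 by CPM. The former has no background over other genes. The log2 ratio of bKO to WT within the second table-name set was 1.62 for Ighv, 1.61 for Igkv and 1.89 for Iglv. The log2 ratio of the kappa effective number was 0.39, and 0.78 by the inverse Simpson index. The cause of these shifts was not tested.

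Leaving out each library in turn gave 0 calls throughout. The log2 ratio then lay between −0.64 and 1.12 for Ighv, −0.070 and 1.38 for Igkv and 0.12 and 0.85 for Iglv, and the lambda difference between −2.80 and 2.79 percentage points. The share difference of Igkv15-103 lay between 0.46 and 0.90 percentage points, and the log2 ratio of the effective number between 0.24 and 0.49 for Igkv and −0.033 and 0.26 for Ighv.

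Whether samples with the same replicate number share anything else is not in the labels. Their deviations from the genotype mean correlated at −0.095, 0.19 and 0.035. Pairs with different numbers correlated at −0.18 to 0.13. So few pairs cannot settle whether a factor was shared. With the replicate block 0 genes and 0 V segments were called, at an unadjusted p under 0.05 712 and 60, against 590 and 5 without it.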

Other observations

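The J segments, which are joined to the V segments, were looked at after the V segments had been described, and the segments named here were chosen after their values were seen. Igkj5 took 42.0% of Igkj counts in WT replicate 2, the library with 24.9% Igkv5-39, and 22.0% to 27.4% in the other 5. Igkj3 had 27 counts over all libraries, against 10238 to 24180 for the other 4 kappa J segments. Ighj1 took 31.6%, 43.7% and 34.1% of Ighj counts in WT and 26.4%, 25.01% and 26.8% in bKO. Ighj4 took 21.4%, 16.3% and 23.9% in WT and 32.3%, 30.2% and 28.6% in bKO. The genotypes did not overlap for these 2 heavy chain J segments and overlapped for Ighj2 and Ighj3. Whether the same transcripts carry Igkv5-39 and Igkj5 cannot be read from counts per gene. How reads that span a J segment and its neighbours were counted is not known here.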
